A study of Mus musculus with 24 samples.

Results

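The chemokines and their receptors were analyzed as a family in medulloblastomas of *G-Smo* and *M-Smo* mice. Members were taken by symbol, as every gene named Ccl, Cxcl, Ccr, Cxcr, Ackr or Xcl with a number, plus *Cx3cl1*, that had a probe set annotated to it alone. This gave 53 genes, 34 ligands and 19 receptors, of the 22180 genes that could be named in this way. A gene with more than 1 probe set was represented by the one with the highest mean, which applied only to *Ccl27a*. *Ccl19*, *Ccl21* and *Ccl27* copies share 33 probe sets that are annotated to several genes, and these were not analyzed here.

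Tumors came from *hGFAP-Cre/SmoM2* mice (*G-Smo*) and *Math1-Cre/SmoM2* mice (*M-Smo*), all on a C57BL/6 background, untreated and harvested at P15, with 6 tumors of each genotype on 1 Affymetrix Mouse Gene 2.1 ST array each. All mice carried *SmoM2*, an oncogenic allele of the SHH receptor component *Smo*, so no group lacked a tumor or the allele. The genotypes differ in the Cre driver: *hGFAP-Cre* acts in neural stem cells and most of their brain descendants, and *Math1-Cre* in committed cerebellar granule neuron progenitors (CGNPs). The study compared tumors started at these different points of development, and the paper states that they differ in both timing and lineage. The question here is which chemokine genes carried signal and which differed by genotype. Another 12 tumors were taken after radiation, and none of the member probe sets (0) had a value there.

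Chemokines are small secreted proteins that steer migrating cells by binding G protein-coupled receptors, and they are grouped as CC, CXC, CX3C and XC by the spacing of their first cysteines. Atypical receptors bind chemokines without signaling through G proteins and so shape the gradients. In the developing cerebellum, CXCL12 from the meninges acts on CXCR4 of CGNPs and holds them in the external granule layer, and in brain tissue the family also governs the entry and position of microglia, macrophages and lymphocytes.

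Expression is given as the log2 intensity of a probe set on the robust multi-array average (RMA) scale, so a difference of 1 is a doubling. Array medians lay at 6.39 to 6.42 in *G-Smo* tumors, against 6.38 to 6.41 in *M-Smo* tumors. The 10 genes listed for granule neuron precursors and tumor cells, such as *Atoh1* and *Gli1*, were all above background, with a mean of 10.97 to 11.05 in *G-Smo* tumors, against 10.82 to 10.95 in *M-Smo* tumors. *Xist* exceeded a log2 intensity of 8 in 5 of 6 *G-Smo* tumors, against 2 of 6 *M-Smo* tumors, so the sexes were unequally spread over the genotypes. With arrays there is no read depth, and the precision is set by how many tumors were measured.

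The ligands *Cxcl14* and *Cxcl12* were lower in *G-Smo* tumors, and *Cxcr4* and *Ackr3*, receptors of CXCL12, showed no such difference. *Cxcl14* encodes a chemokine of epithelia and stroma, for which CXCR4 has been proposed as a binding partner. *Cxcl14* lies on chromosome 13, *Cxcl12* on chromosome 6, and both *Cxcr4* and *Ackr3* on chromosome 1. The promoters of *Cxcl14*, *Cxcl12* and *Cxcr4*, the ligands and the receptor on which the comparison turns, are shown with that of *Cxcl10*, an interferon-induced ligand that was also lower. They run 5′ to 3′ on the gene's strand, from 250 bases before to 50 bases after the RefSeq gene start, in build GRCm38.p6. Capitals mark matches to the core of interferon regulatory factor sites in *Cxcl14* and *Cxcl10*, to a kappaB motif further downstream in *Cxcl10* and to the TATA box in *Cxcr4*, and *Cxcl12* held no match to the motifs searched. The windows are chr13:56296502-56296801 (minus strand), chr6:117168285-117168584 (plus strand), chr5:92348840-92349139 (minus strand) and chr1:128592250-128592549 (minus strand), in the order printed.
Cxcl14: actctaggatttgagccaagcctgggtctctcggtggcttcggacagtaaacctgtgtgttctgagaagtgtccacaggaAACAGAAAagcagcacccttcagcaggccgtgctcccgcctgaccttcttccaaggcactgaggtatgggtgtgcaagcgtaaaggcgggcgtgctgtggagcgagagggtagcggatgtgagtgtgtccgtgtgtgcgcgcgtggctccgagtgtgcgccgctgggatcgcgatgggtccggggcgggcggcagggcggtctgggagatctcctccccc
Cxcl12: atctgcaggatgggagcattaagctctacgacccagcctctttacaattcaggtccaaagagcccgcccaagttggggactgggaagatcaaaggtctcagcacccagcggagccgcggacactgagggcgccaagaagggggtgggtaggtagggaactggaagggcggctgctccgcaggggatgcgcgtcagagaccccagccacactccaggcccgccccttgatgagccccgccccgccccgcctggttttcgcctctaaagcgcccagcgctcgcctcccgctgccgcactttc
Cxcl10: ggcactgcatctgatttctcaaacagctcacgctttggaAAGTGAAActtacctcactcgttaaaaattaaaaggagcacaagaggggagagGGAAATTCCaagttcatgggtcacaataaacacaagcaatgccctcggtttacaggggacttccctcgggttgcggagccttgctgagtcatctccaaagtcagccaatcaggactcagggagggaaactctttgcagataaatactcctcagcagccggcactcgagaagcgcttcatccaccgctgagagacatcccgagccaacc
Cxcr4: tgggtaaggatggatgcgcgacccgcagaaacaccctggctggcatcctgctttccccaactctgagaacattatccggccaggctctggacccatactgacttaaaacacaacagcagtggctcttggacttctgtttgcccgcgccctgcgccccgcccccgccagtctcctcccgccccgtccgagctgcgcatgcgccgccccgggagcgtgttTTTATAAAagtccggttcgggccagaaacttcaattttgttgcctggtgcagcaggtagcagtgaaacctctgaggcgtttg

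Promoters were listed for 39 of the 53 members, 43 windows in all, and each motif was searched on both strands. The interferon regulatory factor core (AANNGAAA) was found in 12 of the 43 windows (27.9%), against 23.9% of all 32851 promoters. Its match lay at -170 to -163 from the start of *Cxcl14* and at -211 to -204 from that of *Cxcl10*, on the plus strand of each gene. A kappaB motif (GGNNTTTCC) was found in 9 windows (20.9%), those of *Cxcl1*, *Cxcl2*, *Cxcl3*, *Cxcl9*, *Cxcl10*, *Ccl9*, *Ccl20*, *Ccr3* and *Ackr4*, against 5.82% of all promoters. The TATA box (TATAAA) was found in 12 windows (27.9%), against 13.6% of all promoters, and in *Cxcr4* its matches on the 2 strands overlap. The GLI motif (GACCACCCA) was in 0 of the 43 windows and in 0.253% of all promoters. A match is a run of letters and not a site shown to be bound.

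*Cxcl14* was 9.15, 8.83, 8.62, 8.98, 8.77 and 8.65 in the 6 *G-Smo* tumors, against 9.40, 9.94, 10.07, 9.97, 10.20 and 9.83 in the 6 *M-Smo* tumors. Every *G-Smo* tumor lay below every *M-Smo* tumor, and the lowest *M-Smo* value, in replicate 1, came closest. The mean was 8.83 ± 0.20 in *G-Smo* tumors, against 9.90 ± 0.28 in *M-Smo* tumors (SD, n = 6 each), a log2 difference of -1.07 (SE 0.13, 95% interval -1.35 to -0.78), or 0.477-fold. It passed limma's test with Benjamini-Hochberg adjustment over 41345 probe sets (adjusted p = 0.00227), and the exact permutation test gave its smallest possible p of 0.00216.

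*Cxcl12* was 8.90, 8.85, 8.72, 9.01, 8.83 and 8.58 in *G-Smo* tumors, against 9.27, 9.15, 9.33, 9.25, 9.20 and 9.22 in *M-Smo* tumors. The groups did not overlap, and the *M-Smo* tumors lay closer together. The means were 8.82 ± 0.15 in *G-Smo* tumors, against 9.24 ± 0.06 in *M-Smo* tumors (SD, n = 6 each), a log2 difference of -0.42 (SE 0.07, 95% interval -0.57 to -0.27), or 0.746-fold (limma adjusted p = 0.0116). Fewer cells of a type and less RNA per cell cannot be told apart in these bulk samples.

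*Cxcr4* was 11.39, 11.44, 11.47, 11.25, 11.42 and 11.48 in *G-Smo* tumors, against 11.13, 11.11, 11.25, 11.73, 11.63 and 11.64 in *M-Smo* tumors. The *M-Smo* tumors fell into 3 lower and 3 higher values on either side of nearly all *G-Smo* tumors. The log2 difference was -0.01 (95% interval -0.25 to 0.24, limma adjusted p = 0.981). *Ackr3*, an atypical receptor that scavenges CXCL12, ranged from 6.62 through a median of 6.85 to 6.91 in *G-Smo* tumors, against from 6.56 through 6.87 to 6.93 in *M-Smo* tumors. Its difference was -0.02 (95% interval -0.18 to 0.15, limma adjusted p = 0.941).

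**Figure D1:**
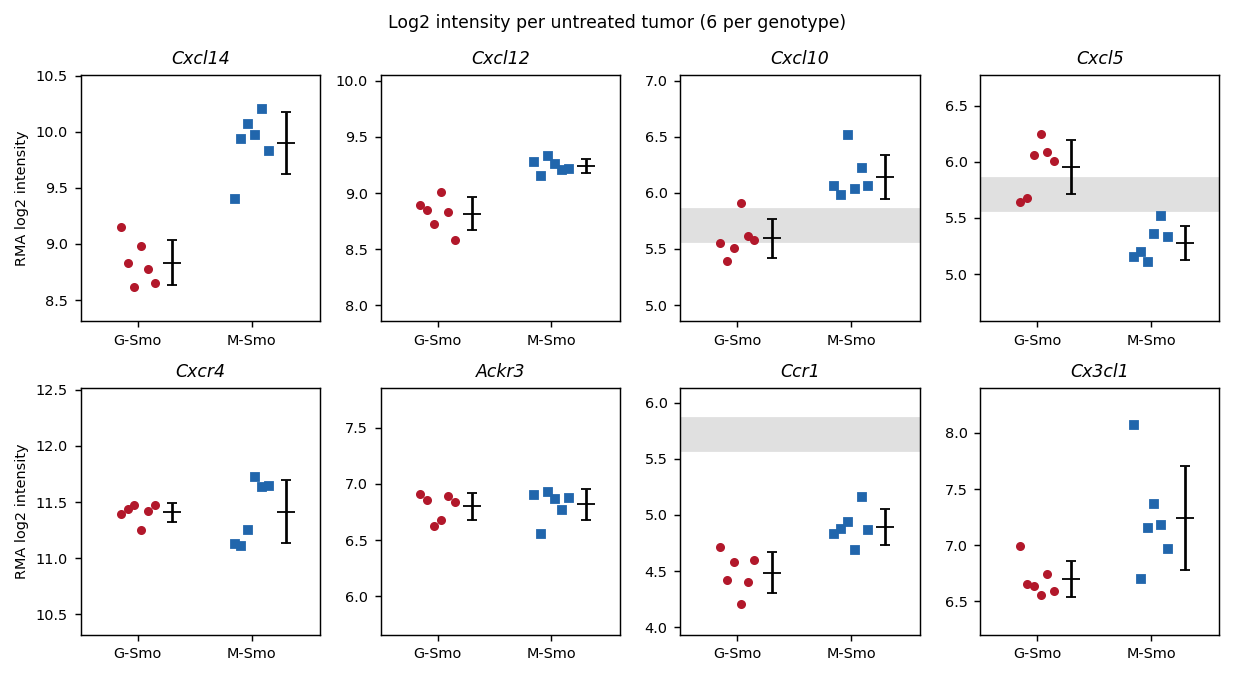
Log2 intensity (y axis, RMA) of 8 chemokine genes in each of 6 *G-Smo* tumors (circles, left) and 6 *M-Smo* tumors (squares, right), with the mean and SD beside the points, every panel spanning the same number of log2 units. The grey band is the range of the background threshold over the arrays where it falls in the panel; *Cxcl14*, *Cxcl12* and *Cxcl10* sit lower and *Cxcl5* higher in *G-Smo* tumors without overlap, and *Cxcr4* and *Ackr3* overlap.

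Whether ligand and receptor differed by genotype to the same extent was asked with each tumor's ligand value minus its receptor value, by exact permutation with adjustment over 3 pairs. *Cxcl12* minus *Ackr3* averaged 2.01 in *G-Smo* tumors, against 2.42 in *M-Smo* tumors, a change of -0.41 with 6 of 6 *G-Smo* tumors below every *M-Smo* tumor (exact permutation, adjusted p = 0.00325). *Cxcl14* minus *Cxcr4* averaged -2.57 in *G-Smo* tumors, against -1.51 in *M-Smo* tumors, a change of -1.06, again without overlap (exact permutation, adjusted p = 0.00325). *Cxcl12* minus *Cxcr4* averaged -2.59 in *G-Smo* tumors, against -2.18 in *M-Smo* tumors, a change of -0.41 with 5 of 6 *G-Smo* tumors below every *M-Smo* tumor (exact permutation, adjusted p = 0.0325). This last call was lost without *G-Smo* replicate 3 or 6 or *M-Smo* replicate 1, 2 or 3, each taken out alone (exact permutation, highest adjusted p = 0.0628).

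Within each genotype the tumors were also ordered by ligand and receptor, with exact permutation tests adjusted over 3 pairs in 2 genotypes. Among *G-Smo* tumors *Cxcl12* and *Cxcr4* ran in opposite directions (r = -0.86, exact p = 0.0264, adjusted p = 0.0792, and rho = -0.94, exact p = 0.0167, adjusted p = 0.05, n = 6), with r = -0.94 after the 2 tumors farthest from the median of *Cxcl12* were left out. Among *M-Smo* tumors the same pair had r = -0.06 (exact p = 0.908) and rho = 0.14 (exact p = 0.803), with r = -0.63 after the same step. *Cxcl12* and *Ackr3* had r = 0.88 (exact p = 0.00833, adjusted p = 0.05) and rho = 0.94 (exact p = 0.0167, adjusted p = 0.05) among *M-Smo* tumors, with r = 0.79 without 2 tumors. Among *G-Smo* tumors this pair had r = -0.05 (exact p = 0.929) and rho = 0.26 (exact p = 0.658), with r = 0.95 without 2 tumors. Each r without 2 tumors rests on the few tumors left and was not tested. None of the 6 relations fell below 0.05 after adjustment, and the difference between the genotypes was not tested. *Cxcl14* and *Cxcr4* had r = -0.66 among *G-Smo* tumors (exact p = 0.144) and 0.45 among *M-Smo* tumors (exact p = 0.417), or -0.93 and -0.40 without 2 tumors of each.

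**Figure D2:**
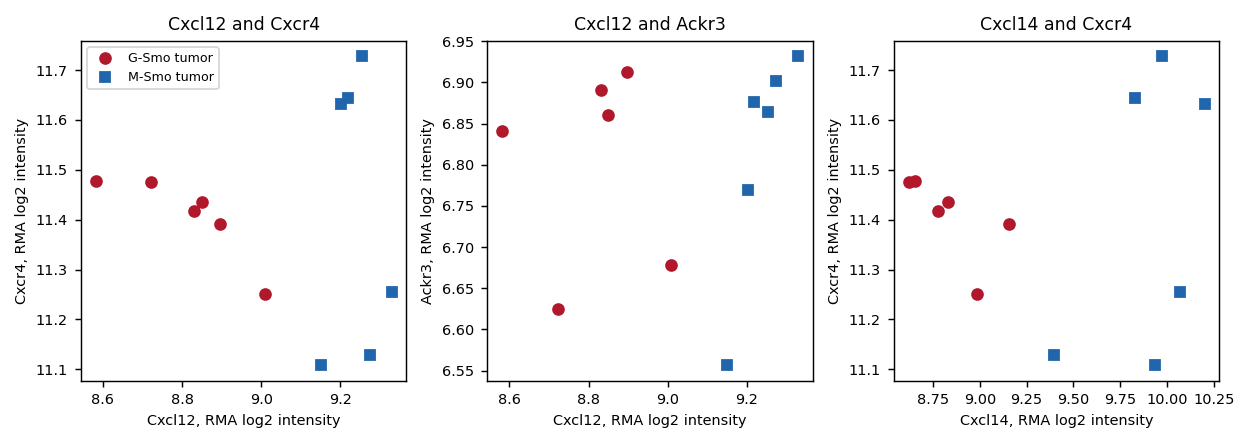
Log2 intensity (RMA) of a ligand (x axis) against that of a receptor (y axis), 1 point per tumor, with 6 *G-Smo* tumors as circles and 6 *M-Smo* tumors as squares. Along the x axes the genotypes separate for *Cxcl12* and *Cxcl14*, and along the y axes they overlap for *Cxcr4* and *Ackr3*.

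Over all 12 tumors the values of *Cxcl12* were most like those of *Ddah1* (r = 0.98), *Dcn* (r = 0.97), *Tnfrsf19* (r = 0.96), *Colec12* (r = 0.96) and *Tbx18* (r = 0.96) among the genes with 1 symbol. For *Cxcl14* they were *Rab11b* (r = 0.96), *Rab31* (r = 0.94), *Ptn* (r = 0.94), *Cdc42ep1* (r = 0.94) and *Tbx18* (r = 0.94). These coefficients describe the likeness only, since the 12 tumors hold both genotypes. *Cxcl12* and *Cxcl14* had r = 0.89 over the 12 tumors, and 0.37 once each genotype's mean was removed.

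Some genes listed for other cell types also passed limma's test, where 1.29% of all 41345 probe sets were lower in *G-Smo* tumors and 1.27% higher. Of 12 genes listed for fibroblasts and meninges, 8 were lower in *G-Smo* tumors, against none higher (0), among them *Slc6a13* (-1.08, limma adjusted p = 0.000377), a transporter of leptomeningeal cells, and *Dcn* (-0.79, limma adjusted p = 0.00399), a matrix proteoglycan. The other 4 did not pass, *Ogn* (-0.50), *Col3a1* (-0.37), *Islr* (-0.04) and *Igf2* (0.21). The mean of the list was 7.26 to 7.78 in *G-Smo* tumors, against 7.89 to 8.39 in *M-Smo* tumors. Of 8 astrocyte genes 4 were lower, *Gfap*, *Aqp4*, *Aldh1l1* and *Clu*, with list means of 9.68 to 9.94 in *G-Smo* tumors, against 9.97 to 10.29 in *M-Smo* tumors. Endothelial genes had 1 of 8 lower, *Cdh5*, with list means of 8.22 to 8.40 in *G-Smo* tumors, against 8.36 to 8.61 in *M-Smo* tumors. Pericyte genes had 0 of 5 past the test. All genes of these 4 lists were above background. Their part in the lower *Cxcl12* and *Cxcl14* was not tested.

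The list for choroid plexus and ependyma had 4 measured genes, all above background, with list means of 6.77 to 8.41 in *G-Smo* tumors, against 6.89 to 9.02 in *M-Smo* tumors. *Ttr*, which encodes transthyretin, a secreted product of choroid plexus epithelium, was 6.14 to 6.45 in 5 *G-Smo* tumors and 11.89 in replicate 5, against 9.72 to 12.86 in 5 *M-Smo* tumors and 6.74 in replicate 5. Of the 4 genes 0 passed the test, with *Ttr* at -3.89 (limma unadjusted p = 0.00718, adjusted p = 0.110) and *Folr1*, a folate receptor of the same epithelium, at -0.80 (limma unadjusted p = 0.0150, adjusted p = 0.152). The others of the list went the other way, *Clic6* at 0.16 (limma adjusted p = 0.473) and *Foxj1* at 0.22 (limma adjusted p = 0.515). In *G-Smo* replicate 5, where *Ttr* was high, *Cxcl12* was 8.83 and *Cxcl14* 8.77, within the range of the other *G-Smo* tumors. In *M-Smo* replicate 5, where *Ttr* was low, *Cxcl12* was 9.20 and *Cxcl14* 10.20, both above every *G-Smo* tumor. Any relation of these ligands to choroid plexus tissue was not tested.

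**Figure D3:**
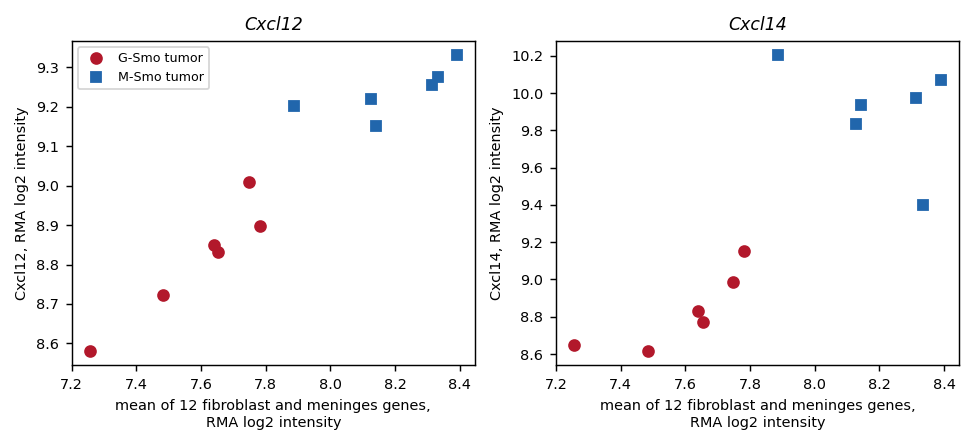
Log2 intensity (RMA, y axis) of *Cxcl12* and *Cxcl14* against the mean of 12 genes of fibroblasts and meninges (x axis), 1 point per tumor, with *G-Smo* tumors as circles and *M-Smo* tumors as squares. The list mean spans 7.26 to 7.78 in *G-Smo* tumors, against 7.89 to 8.39 in *M-Smo* tumors, and the genotypes separate on both axes.

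To see which members carried signal, each was set against 1383 probe sets of olfactory and vomeronasal receptor genes, read as little transcribed in cerebellar tumors. A member counted as above background where it exceeded the 95th percentile of these probe sets on the same array in at least 4 of the 6 tumors of either genotype. The threshold was 5.57 to 5.66 in *G-Smo* arrays and 5.57 to 5.86 in *M-Smo* arrays. By this rule 26 of 53 members were above background (49.1%), 18 of 34 ligands and 8 of 19 receptors, against 65.9% of the 22180 genes and 4.92% of the olfactory and vomeronasal probe sets themselves. Of the 26, 20 were above it in both genotypes and 16 exceeded the threshold on all 12 arrays. *Cxcl5*, *Ccr10* and *Cxcr1* were above it only in *G-Smo* tumors, against *Cxcl10*, *Ccl28* and *Ccl20* only in *M-Smo* tumors, which is a count of arrays and not a test of the genotype. At the 99th percentile 10 remained: *Cxcl12*, *Cxcl14*, *Cxcl16*, *Cx3cl1*, *Ccl3*, *Ccl9*, *Ccl25*, *Ccl27a*, *Cxcr4* and *Ackr1*.

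**Figure D4:**
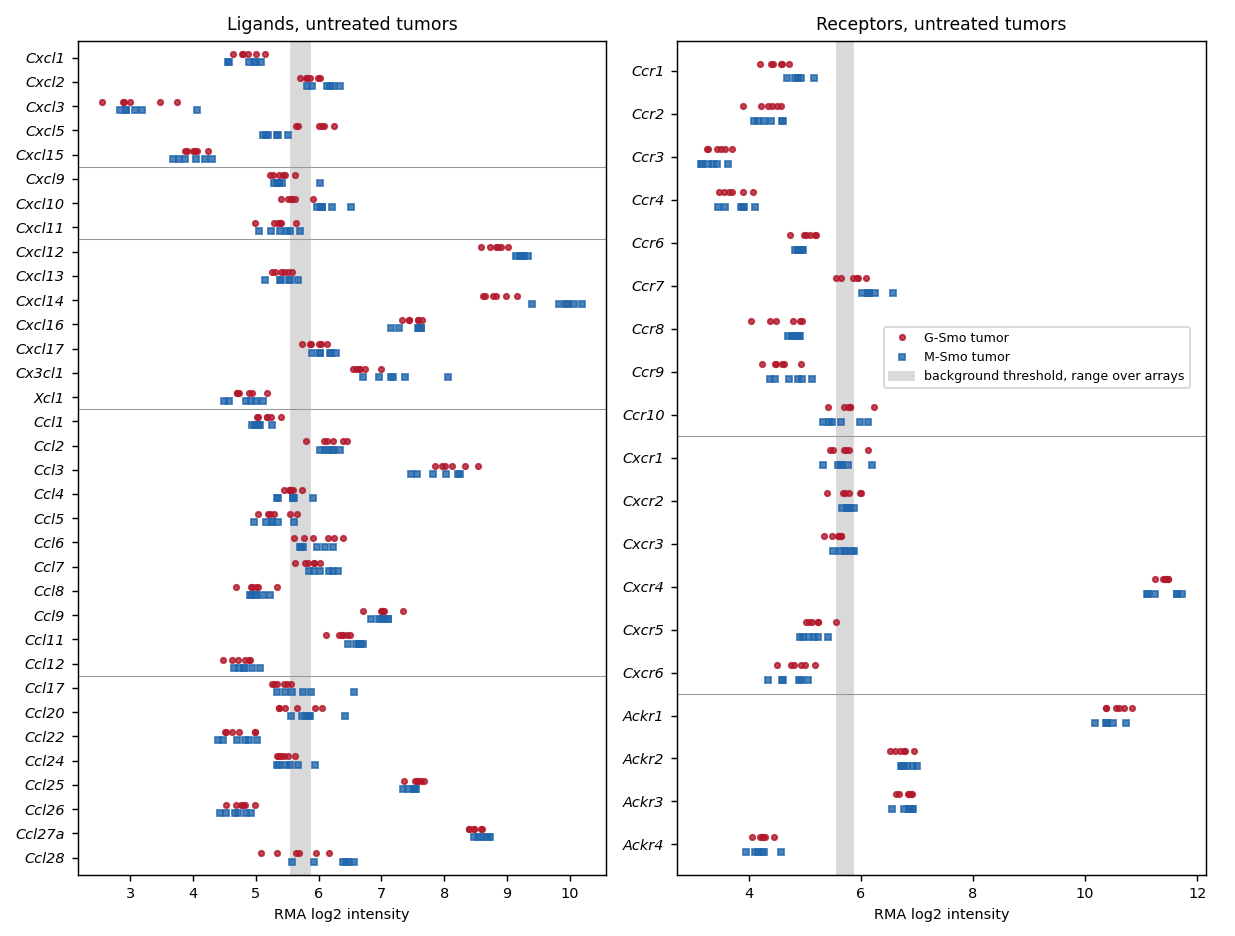
Log2 intensity (RMA, x axis) of the 34 ligands (left) and 19 receptors (right) in each tumor, with *G-Smo* tumors as circles above *M-Smo* tumors as squares and lines between the classes. The grey band is the range of the background threshold over the arrays, 5.57 to 5.86. Against each array's own threshold 26 members are above background in at least 4 of 6 tumors of a genotype, and some of them lie partly within the band.

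Against this background, 5 of 53 members differed by genotype in limma's test (9.43%), where 2.56% of all 41345 probe sets did. Lower in *G-Smo* tumors were 4, *Cxcl14*, *Cxcl12*, *Cxcl10* and *Ccr1*, where 1.29% of all probe sets were lower. *Cxcl5* alone was higher (1 member), where 1.27% of all probe sets were higher. This background balance of 532 lower and 525 higher probe sets became 658 and 430 under quantile normalization, with 3 members lower and 1 higher. The members come from the 23521 probe sets with 1 symbol. When only these were tested, 1145 were called, 683 lower and 462 higher, with 5 members lower and 1 higher. The genotypes did not overlap in 4 members (7.55%), 3 lower and 1 higher, where 3.46% of all probe sets did not. At an unadjusted p under 0.05 the members came to 11 (20.8%), close to the 18.9% of all probe sets. The median difference was -0.03 over the members and 0.003 over all probe sets, and 31 of 53 members had a negative difference, as did 49.0% of all probe sets and 53.6% of the 22180 genes with 1 symbol.

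**Figure D5:**
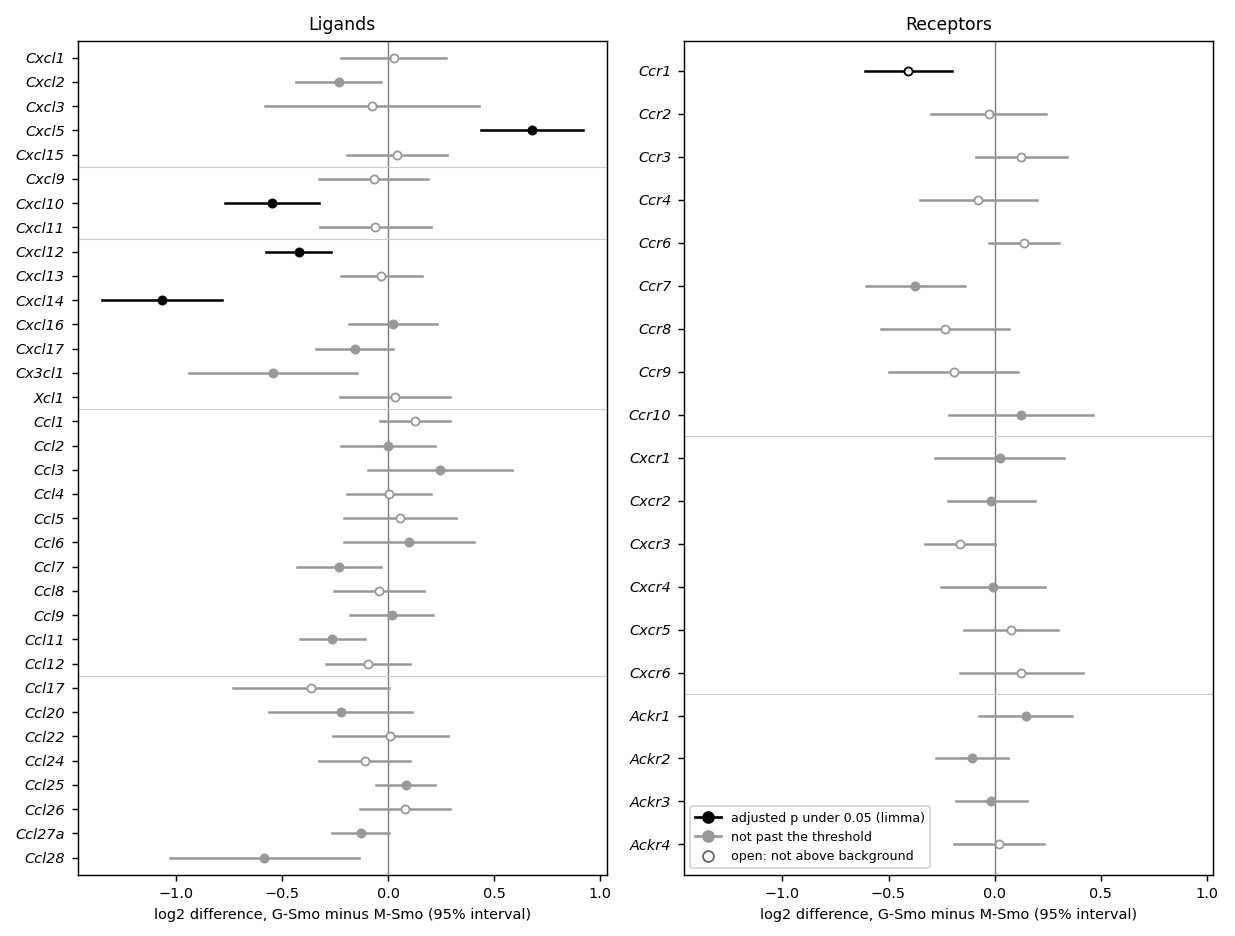
Log2 difference, *G-Smo* minus *M-Smo*, of each ligand (left) and receptor (right) with its 95% interval from limma, 6 tumors per genotype. Black marks the 5 members with adjusted p under 0.05, of which *Cxcl5* alone lies above 0, and open points mark members not above background.

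Among the CXC ligands with an ELR motif, which draw neutrophils through CXCR2, *Cxcl5* was 5.64, 5.67, 6.06, 6.25, 6.09 and 6.01 in *G-Smo* tumors, against 5.16, 5.19, 5.11, 5.36, 5.51 and 5.33 in *M-Smo* tumors. All *G-Smo* tumors were higher than all *M-Smo* tumors, and above the threshold in 6 of 6 *G-Smo*, against 0 of 6 *M-Smo* tumors. The fitted log2 difference was 0.68 (SE 0.11, 95% interval 0.44 to 0.92, limma adjusted p = 0.0109). Since every *M-Smo* value was at background, the mean of *Cxcl5* is given as at least 1.19-fold higher in *G-Smo* tumors, with the threshold of each array in place of the *M-Smo* value. The spread between tumors does not enter this bound. *Cxcl2*, which was above background in both genotypes, differed by -0.23 (limma adjusted p = 0.197), and *Cxcl1*, *Cxcl3* and *Cxcl15* were not above background. *Cxcr2*, the receptor of these ligands, was above background in both genotypes, with 5.76 in *G-Smo* and 5.77 in *M-Smo* tumors on average (difference -0.02, 95% interval -0.22 to 0.19). *Cxcr1* differed by 0.02 (95% interval -0.28 to 0.33). None of the 9 genes of neutrophils and monocytes was above background (0), with list means of 4.45 to 4.74 in *G-Smo* tumors, against 4.56 to 4.89 in *M-Smo* tumors.

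Of the 3 interferon-induced ligands of CXCR3, a receptor of activated lymphocytes, *Cxcl10* alone passed the test. It was 5.55, 5.40, 5.51, 5.90, 5.61 and 5.58 in *G-Smo* tumors, against 6.06, 5.98, 6.51, 6.04, 6.22 and 6.06 in *M-Smo* tumors. The groups did not overlap, with *G-Smo* replicate 4 next to the lowest *M-Smo* tumor, and 2 of 6 *G-Smo* against 6 of 6 *M-Smo* tumors exceeded the threshold. The fitted log2 difference was -0.55 (SE 0.10, 95% interval -0.77 to -0.33, limma adjusted p = 0.0192). With the threshold in place of the 4 *G-Smo* values at background, the mean of *Cxcl10* was at least 1.38-fold lower in *G-Smo* tumors. This bound allows for values at background and leaves out the spread between tumors. Adjusted for a score of sex-linked genes, it missed the threshold (limma adjusted p = 0.0720). *Cxcl9* differed by -0.07 (95% interval -0.33 to 0.19) and *Cxcl11*, annotated as a transcribed pseudogene, by -0.06 (95% interval -0.32 to 0.20), and neither was above background. The gene models of *Cxcl10* and *Cxcl11* overlap that of *Art3*. *Cxcr3* was not above background, and 1 of 9 lymphocyte genes was.

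The other CXC, CX3C and XC ligands numbered 7, of which 5 were above background on all 12 arrays. *Cx3cl1*, which encodes fractalkine, a membrane-bound neuronal ligand of the microglial receptor CX3CR1, was 7.00, 6.66, 6.64, 6.55, 6.74 and 6.59 in *G-Smo* tumors, against 8.07, 6.70, 7.15, 7.37, 7.18 and 6.97 in *M-Smo* tumors. Most *M-Smo* tumors were higher, replicate 1 farthest, and the groups overlapped. The log2 difference of -0.54 (95% interval -0.94 to -0.15) did not pass limma's test (adjusted p = 0.134). *Cx3cr1* averaged 8.32 in *G-Smo* tumors, against 8.36 in *M-Smo* tumors (difference -0.04, limma adjusted p = 0.867), and 0 of the 10 measured microglial genes passed the test. *Cxcl16*, a ligand of CXCR6 that exists in membrane-bound and soluble form, differed by 0.02 (95% interval -0.18 to 0.23). Its gene model overlaps that of *Zmynd15*, and *Cxcr6* was not above background. *Cxcl17* differed by -0.16 (95% interval -0.34 to 0.02), while *Cxcl13*, which guides B cells, and *Xcl1* were not above background.

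No CC ligand of the chromosome 11 clusters passed the test, 0 of 11, with differences from -0.26 to 0.24 and 6 of 11 above background. *Ccl2*, which recruits monocytes through CCR2, was 6.38, 6.09, 5.79, 6.23, 6.13 and 6.45 in *G-Smo* tumors, against 6.23, 6.34, 6.11, 6.23, 6.01 and 6.15 in *M-Smo* tumors. The *G-Smo* tumors reached both lower and higher than the *M-Smo* tumors. The means were 6.18 in each genotype, with a 95% interval of the difference from -0.22 to 0.22. *Ccr2* was below the threshold on every array, at 3.89 to 4.58 in *G-Smo* tumors, against 4.09 to 4.61 in *M-Smo* tumors, so its difference of -0.03 is one between values at background. *Ccl3*, an inflammatory chemokine of myeloid cells, averaged 8.14 ± 0.26 in *G-Smo* tumors, against 7.89 ± 0.33 in *M-Smo* tumors (SD, n = 6 each, difference 0.24, 95% interval -0.10 to 0.59), and its gene model overlaps that of *Ccl4*. *Ccl11*, or eotaxin, was 6.11 to 6.50 in *G-Smo* tumors with a median of 6.38, against 6.46 to 6.71 in *M-Smo* tumors with a median of 6.64. Its difference of -0.26 (95% interval -0.42 to -0.11) missed the threshold (limma adjusted p = 0.0692), and passed it in 3 of the alternative settings. *Ccl7*, another monocyte chemokine, differed by -0.23 (limma adjusted p = 0.193). *Ccl9* and *Ccl6*, myeloid chemokines of rodents, differed by 0.02 (95% interval -0.18 to 0.21) and 0.10 (95% interval -0.21 to 0.40).

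Of the 8 other CC ligands none passed the test (0), and 4 were above background. *Ccl28*, a ligand of CCR10 in mucosal tissues, was 5.09 to 6.16 in *G-Smo* tumors with a median of 5.66, against 5.58 to 6.56 in *M-Smo* tumors with a median of 6.42, with overlap (difference -0.58, 95% interval -1.03 to -0.14, limma adjusted p = 0.148). *Ccl25*, a thymic and gut ligand of CCR9, differed by 0.08 (95% interval -0.06 to 0.22), and *Ccr9* was not above background. *Ccl27a*, a skin chemokine whose gene model overlaps that of *Il11ra1*, differed by -0.13 (95% interval -0.26 to 0.004), and its second probe set by -0.06. *Ccl20*, which acts on CCR6 of lymphocytes and dendritic cells, differed by -0.22 (95% interval -0.56 to 0.11), and *Ccr6* was not above background.

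*Ccr1*, a receptor of CCL3 and related ligands on myeloid cells, was the only receptor past the test. It was 4.72, 4.42, 4.58, 4.20, 4.40 and 4.60 in *G-Smo* tumors, against 4.83, 4.87, 4.93, 4.69, 5.16 and 4.87 in *M-Smo* tumors. All 12 values lie below the background threshold, and 5 of 6 *G-Smo* tumors were below every *M-Smo* tumor. The log2 difference was -0.41 (SE 0.10, limma adjusted p = 0.0454), and the call was lost in 10 of 12 fits with 1 array left out (highest limma adjusted p = 0.1004). *Ccr7*, the receptor that leads dendritic cells and T cells to lymph nodes, was 5.56 to 6.08 in *G-Smo* tumors with a median of 5.89, against 6.01 to 6.57 in *M-Smo* tumors with a median of 6.14 (difference -0.37, limma adjusted p = 0.0870). *Ccr10* was above background in 5 of 6 *G-Smo*, against 3 of 6 *M-Smo* tumors, with a difference of 0.12 (95% interval -0.22 to 0.46). The gene model of *Ccr10* overlaps that of *Cntnap1*, so its probe set may also read that gene. The other CC receptors were not above background.

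Of the atypical receptors, *Ackr1*, *Ackr2* and *Ackr3* were above background on all 12 arrays and *Ackr4* was not. *Ackr1*, the Duffy receptor of venules and red cells, averaged 10.57 in *G-Smo* tumors, against 10.42 in *M-Smo* tumors (difference 0.15, 95% interval -0.07 to 0.37), and its gene model overlaps that of *Cadm3*, so its probe set may also read that gene. *Ackr2*, a scavenger of inflammatory CC chemokines, differed by -0.11 (95% interval -0.28 to 0.06).

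Genes around the family were counted from lists. Over all probe sets 1.29% were lower in *G-Smo* tumors in limma's test and 1.27% higher. Among 9 measured chemokine and related genes whose symbols fall outside the rule, 2 were lower in *G-Smo* tumors. *Pf4*, or CXCL4, a product of platelets and some macrophages, was 5.72 to 6.11 in *G-Smo* tumors with a median of 5.79, against 6.16 to 6.62 in *M-Smo* tumors with a median of 6.36, without overlap (difference -0.53, limma adjusted p = 0.0101). *Mif*, a cytokine that binds CD74 and also CXCR4, differed by -0.20 (limma adjusted p = 0.0489). This direction is opposite to that of the paper's single-cell data, where *Mif* was higher in *G-Smo* tumors. The measures are unlike, since an array reads the whole tumor with its stroma and the paper compared cells. The *Mif* call lies close to the threshold and was not followed through the alternative settings. Why the directions differ was not tested. Of 10 measured macrophage genes 3 were lower, *Lyve1* (-0.91), *Mrc1* (-0.71) and *Pf4* itself, with list means of 5.68 to 5.91 in *G-Smo* tumors, against 5.98 to 6.28 in *M-Smo* tumors, and their part in the chemokine differences was not tested. Of 24 genes of chemokine receptor signaling, such as G protein subunits and arrestins, 23 were above background and 0 passed the test, with a median difference of 0.02. The smallest p among them belonged to *Elmo1* (-0.20, limma adjusted p = 0.105), which with DOCK2 activates Rac. Of 14 genes that process or present chemokines, 11 were above background and 0 passed, with *Vcam1*, an endothelial adhesion molecule, at -0.25 (limma adjusted p = 0.142).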

How the data were processed

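RNA of 12 untreated tumors was measured, 6 per genotype. What the authors deposited is 1 RMA value per probe set and array, a log2 intensity, and their methods name Partek. Genes were named from the platform annotation where a probe set had 1 symbol. Gene models, overlaps, types and promoters are RefSeq's, build GRCm38.p6.

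The genotypes were compared on the values as deposited with limma 3.58.1 (lmFit and eBayes) in R 4.3.3, with statmod 1.5.0, two-sided, with Benjamini-Hochberg adjustment over 41345 probe sets and a threshold of 0.05. Single values were compared by a two-sided exact permutation test over 924 assignments of the tumors. The limma fit was tested on simulated arrays with 200 probe sets changed. It recovered 54% of log2 changes of 0.5 and 87% of changes of 1, and smaller changes were not simulated. A member that did not pass may therefore still differ. The exact test was checked on constructed values, and the background rule and motif search were not simulated. RMA sets all arrays to a common distribution, so differences are relative, and neighboring chemokine genes of like sequence can share signal.

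Labels give replicate numbers, without saying that they mark litters, so p-values measure the spread between these tumors. Named genes are the ligands and receptors set by role, members past the test or above background with an unadjusted p under 0.05, members above background by role, and the list genes past the test or of smallest p. The members, lists and tests were chosen with earlier results of these data known. Alternatives were other scaling, filters, variance models, thresholds, a sex score, the replicate block and leaving out each array. Radiated tumors were not used, having no member values.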

Additional observations from a re-analysis of the deposited data

Results flagged for a closer look

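In 60 groups of 6 tumors, 2 held a tumor far from the others of its genotype by Dixon's criterion, where chance gives about 1 in 20 groups, or 3. *Ccl20*, a ligand of CCR6, was 6.41 in *M-Smo* replicate 3, with the nearest *M-Smo* tumor at 5.86 and the lowest at 5.56. *Cxcl12* minus *Ackr3* was 2.59 in *M-Smo* replicate 2, with the nearest at 2.43 and the lowest at 2.34.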

How the results depend on the processing

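*Cxcl5* was called under every alternative fit that tested it, with limma adjusted p of up to 0.0372. *Cxcl12* and *Cxcl14* kept their direction in every fit run and their calls in all but the one with the replicate number as a block, where they gave -0.42 (limma adjusted p = 0.0689) and -1.07 (limma adjusted p = 0.0520). The deviations of same-numbered tumors from their genotype means correlated at -0.14 to 0.11, and whether the numbers mark a litter or batch was not tested. With this block 1 member (*Cxcl5*) and 113 probe sets were called, against 5 and 1057 without it. In the same pairing *Cxcl12* minus *Cxcr4* was -0.41 (exact sign-flip test, adjusted p = 0.0938). Adjusting for a score of sex-linked genes left 3 members called, *Cxcl12*, *Cxcl14* and *Cxcl5*, and 420 probe sets. The filter on dim probe sets gave 1881 calls. The causes were not tested. With 1 array left out in turn, 4 to 5 members and 367 to 942 probe sets were called, *Cxcl12* minus *Cxcr4* was -0.49 to -0.35, *Cxcr4* was -0.0694 to 0.0545 and *Ackr3* was -0.0676 to 0.0198. The sign of *Cxcr4* also turned with the sex score, at 0.0306. Members above background numbered 10 at the 99th percentile, 16 when all 12 arrays were required, and at most 34 at the 90th percentile. Median centring and quantile normalization moved the median of all probe sets by under 0.1. *Ccr1* lost its call under quantile normalization (limma adjusted p = 0.0507), the methods' test (adjusted p = 0.0594), the sex score and the block. Signal close to background limits *Cxcl5*, *Cxcl10* and *Ccr1*.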
